A study of Schizosaccharomyces pombe with 16 samples.

Results

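A set of 332 non-coding RNAs of the fission yeast Schizosaccharomyces pombe, each lying antisense to 2 or more other annotated features, was measured in 8 strains that differ in RNA polymerase II. The RNAs are those SPNCRNA-named rows of the deposited table of 7022 features whose antisense column lists several partners, less 12 RNAs left out by name. Of the 1553 SPNCRNA rows, 332 were chosen, 842 are antisense to 1 feature, 378 are antisense to none, and SPNCRNA.888 would have met the rule but is among those left out by name. The rule itself reads the annotation and no measured value. With SPNCRNA.888 put back, the calls against WT were 77 in place of 76 in S2A, 1 in place of 0 in T4A and 4 in place of 3 in S7A. They were also 81 in place of 80 in S2A-S7A and 22 in place of 21 in T4A-S7A, and unchanged in Y1F and Y1F-S7A. Polyadenylated RNA was sequenced in 16 libraries, 2 biological replicates for each strain. The mutants were rpb1CTD-Y1F, rpb1CTD-S2A, rpb1CTD-T4A, rpb1CTD-S7A, rpb1CTD-Y1F-S7A, rpb1CTD-S2A-S7A and rpb1CTD-T4A-S7A, and the wild type was rpb1CTD-WT 1-18 (WT). All 8 strains also carried ade6, ura4-D18 and leu1–32. S2A cells were h+ and the cells of every other strain h-, so S2A against WT differs in mating type as well as in the replaced residue. Cells grew in rich YES medium at 30 °C and were taken at an OD600 between 0.4 and 0.7.

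Rpb1 is the largest subunit of RNA polymerase II, and its carboxy-terminal domain (CTD) is a tail of short repeated units whose tyrosine, serine and threonine residues are phosphorylated as the enzyme moves along a gene. As the strain names give it, Y1F has phenylalanine in place of tyrosine, S2A and S7A have alanine in place of a serine, and T4A has alanine in place of threonine. Phosphate on the serine that S2A replaces rises towards the 3′ ends of genes and is bound by factors of elongation and RNA 3′-end processing. An antisense RNA is copied from the strand opposite an annotated gene. In fission yeast such RNAs are usually scarce, and histone deacetylase complexes, chromatin remodellers and the nuclear exosome are known to keep many of them down.

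The stretch that carries an RNA from one partner to the next shows how these RNAs are laid out. The 7 stretches printed belong to RNAs that later results turn on and whose partners lie at most 200 bases apart. Each is read 5′ to 3′ on the RNA's own strand from the RefSeq assembly ASM294v3, which gives identical coordinates for 320 of the 322 RNAs of the set that it names. Capitals mark the bases between the 2 annotated partners, and the 20 lower-case bases on each side lie inside a partner.
SPNCRNA.735 between cut9 and mtr4, chrI:1344838-1344943, plus strand: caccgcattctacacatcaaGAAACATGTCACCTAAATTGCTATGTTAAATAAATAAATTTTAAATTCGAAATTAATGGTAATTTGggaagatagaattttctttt
SPNCRNA.678 between kri1 and pan2, chrI:736584-736741, minus strand: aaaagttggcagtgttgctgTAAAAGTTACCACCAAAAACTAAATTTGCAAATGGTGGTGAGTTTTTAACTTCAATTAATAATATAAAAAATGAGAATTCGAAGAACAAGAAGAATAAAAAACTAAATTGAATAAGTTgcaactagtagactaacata
SPNCRNA.1491 between prp16 and pwp1, chrII:2165977-2166127, minus strand: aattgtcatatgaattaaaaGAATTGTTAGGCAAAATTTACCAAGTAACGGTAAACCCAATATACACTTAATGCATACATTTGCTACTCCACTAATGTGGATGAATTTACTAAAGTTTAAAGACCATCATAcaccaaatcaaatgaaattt
SPNCRNA.1289 between ubp12 and dbp9, chrIII:2332494-2332707, plus strand: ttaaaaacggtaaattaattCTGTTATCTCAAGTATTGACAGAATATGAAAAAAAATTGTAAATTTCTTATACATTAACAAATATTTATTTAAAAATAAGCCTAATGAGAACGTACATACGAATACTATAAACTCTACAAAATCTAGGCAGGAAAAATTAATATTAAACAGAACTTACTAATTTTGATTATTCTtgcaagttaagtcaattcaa
SPNCRNA.1041 between ure2 and csn71, chrI:4989651-4989744, plus strand: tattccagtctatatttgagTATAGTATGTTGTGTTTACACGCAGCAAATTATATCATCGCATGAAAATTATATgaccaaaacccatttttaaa
SPNCRNA.930 between sgo2 and ppk3, chrI:3713908-3714103, minus strand: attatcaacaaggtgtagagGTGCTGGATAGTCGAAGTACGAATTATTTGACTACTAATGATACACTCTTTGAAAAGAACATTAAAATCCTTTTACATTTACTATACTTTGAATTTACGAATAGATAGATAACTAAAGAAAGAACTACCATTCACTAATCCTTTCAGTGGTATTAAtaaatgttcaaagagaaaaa
SPNCRNA.1140 between aph1 and ser3, chrIII:469896-470092, plus strand: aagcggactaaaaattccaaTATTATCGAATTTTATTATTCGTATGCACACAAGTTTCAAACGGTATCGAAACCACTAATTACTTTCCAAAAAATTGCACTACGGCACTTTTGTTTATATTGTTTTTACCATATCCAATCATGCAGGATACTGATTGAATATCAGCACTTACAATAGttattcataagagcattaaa
The gaps were 66 bases long in SPNCRNA.735, 118 in SPNCRNA.678, 111 in SPNCRNA.1491, 174 in SPNCRNA.1289, 54 in SPNCRNA.1041, 156 in SPNCRNA.930 and 157 in SPNCRNA.1140. Their GC content was between 21.2% in SPNCRNA.735 and 31.5% in SPNCRNA.1491. Each of these 7 RNAs leaves the first partner across its 5′ end and enters the second across its 3′ end, so it runs backwards through tandem genes. This order is fixed for any RNA whose 2 opposite-strand partners are parted by a gap, which these stretches were chosen to have.

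**Figure D1:**
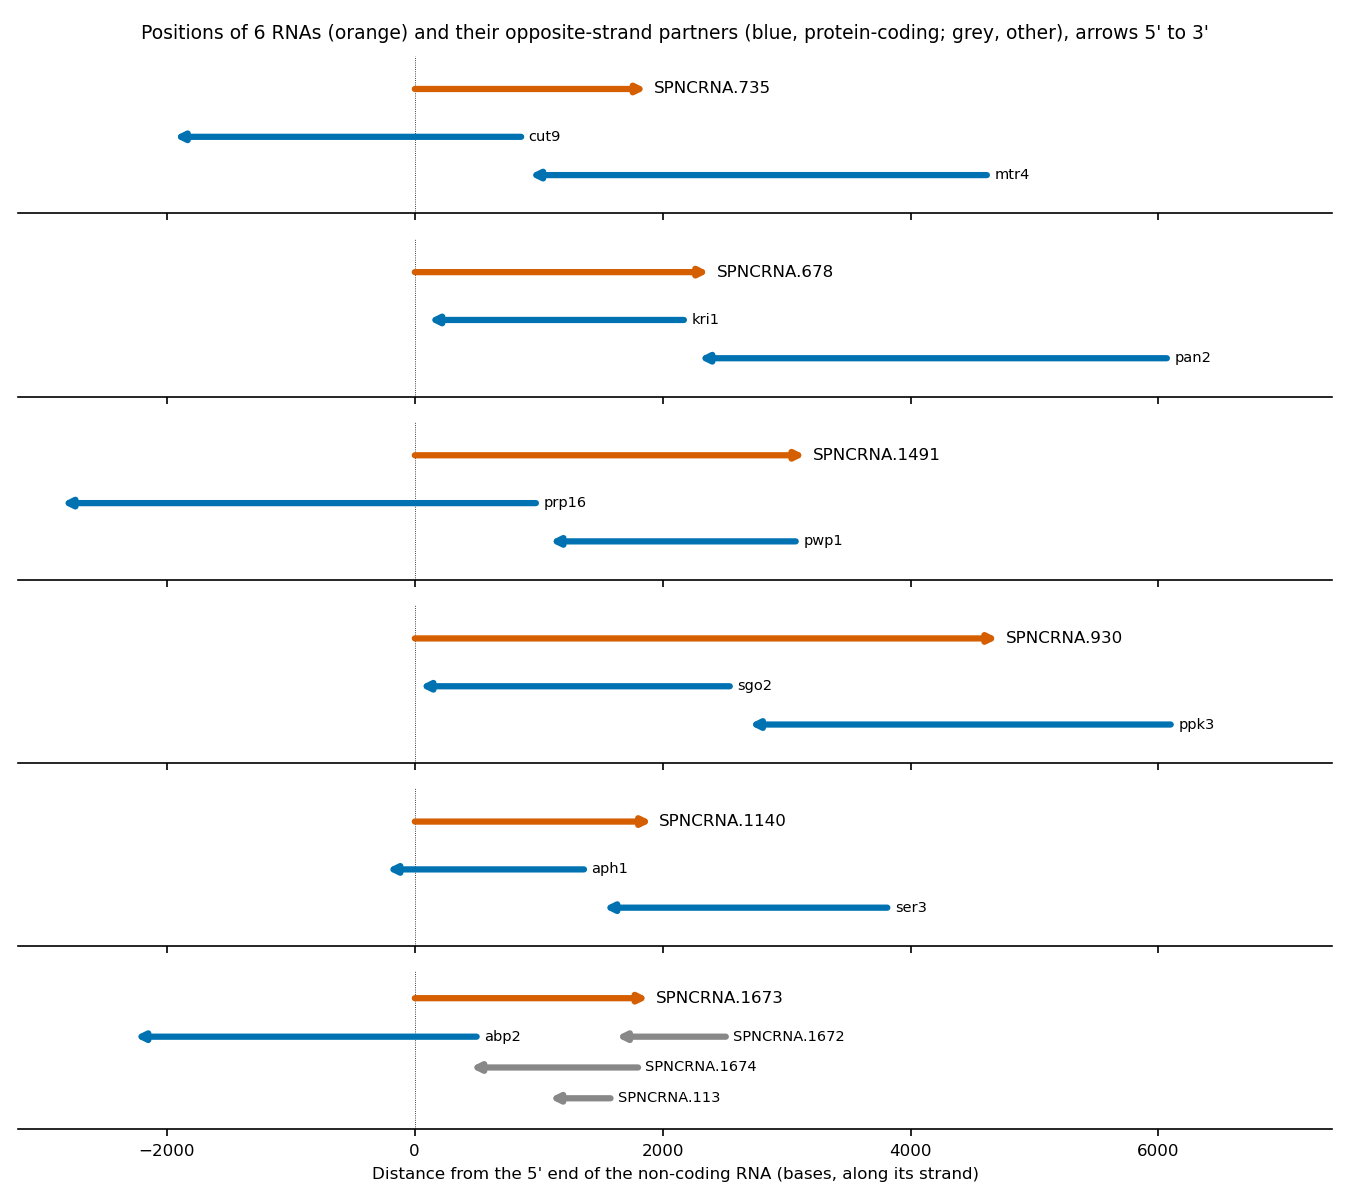
Positions of 6 antisense RNAs and of the features they overlap, drawn to scale against the distance in bases from the 5′ end of the RNA. SPNCRNA.735, SPNCRNA.678, SPNCRNA.1491, SPNCRNA.930 and SPNCRNA.1140 each cross from one protein-coding gene into another, while SPNCRNA.1673 overlaps 4 features, 3 of them non-coding.

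Of the 332 RNAs, 291 have 2 partners, 39 have 3 and 2 have 4. They lie on chromosome I (151), chromosome II (119) and chromosome III (62). Their annotated width ran from 79 bases in SPNCRNA.127 to 5317 bases in SPNCRNA.1263, with a median of 1544.5 bases, against 1047.5 bases for RNAs antisense to 1 feature and 558.5 bases for those antisense to none. The 332 RNAs make 707 pairs with 685 different partners, of which 509 are protein-coding and 176 are not, and 50 partners are themselves members of the set. Protein-coding partners alone were found for 195 RNAs, both kinds for 111 and no protein-coding partner for 26. The overlap was between 1 and 4349 bases with a median of 592 bases, and in 77 pairs it was under 50 bases. In 322 of the 525 coding pairs the RNA covered the 5′ end of the gene, in 265 its 3′ end and in 77 both. In all, 277 RNAs covered the 5′ end of at least 1 coding gene, and 125 covered a whole partner. Between neighbouring partners of an RNA, 217 of 363 neighbouring pairs left a gap, with a median of 182 bases, and 146 left none.

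In WT the RNAs were scarce beside their partners. Their median level was 4.25 RPKM (reads per kilobase of feature, scaled to library size, the mean of the authors' 2 deposited values), with quartiles of 1.84 and 8.44 RPKM, and the median of their protein-coding partners was 41.2 RPKM. RNAs antisense to 1 feature had a median of 3.26 RPKM and those antisense to none 1.31 RPKM. A member stood at a median of 10.9% of its highest partner's RPKM in S2A and 7.33% in WT, and exceeded it in 29 cases in S2A and 24 in WT. The highest members over the 8 strains were SPNCRNA.1018, SPNCRNA.716, SPNCRNA.872, SPNCRNA.1115 and SPNCRNA.1626. SPNCRNA.1018, antisense to sec18, a gene for a vesicle-fusion ATPase, and to SPAC1834.13, reached 90.6 RPKM in S2A and 101.3 RPKM in WT and was called in no comparison. The shortest member, SPNCRNA.127, had at most 2 reads in any library. Enough reads for a test were found for 321 RNAs, and the other 11 had at most 16 reads in any library.

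The 16 libraries held between 18677921 and 31254978 reads, and the 332 RNAs together took 0.394 to 0.746% of them. Each RNA's level is its CPM, a read count divided by the TMM-adjusted library total, for replicate 1 and then replicate 2. Fold changes are on the log2 scale, from n = 2 libraries of each strain, followed by ± their standard error (SE). The SE is worked back from the test statistic of the edgeR fit, whose spread is estimated over all 16 libraries. An RNA is called, or said to have risen or fallen, at an adjusted p under 0.05 in edgeR's quasi-likelihood test with Benjamini-Hochberg adjustment over all 6420 features tested. The targeted gene rpb1 was called in no comparison, with a lowest log2 fold change of -0.52 in T4A-S7A against WT (adjusted p = 0.19, and 0.025 with the replicate block), and its count does not read the replaced residues. The ura4 gene had 0 reads in every library. Of 9 mating-type markers, 1 was called in S2A: mfm2, an M-factor pheromone gene of h- cells, had 0.921 and 1.58 CPM in S2A, against 35.8 and 24.5 CPM in WT (log2 fold change -4.61 ± 0.47, adjusted p = 9.2e-05). It also fell in T4A-S7A, an h- strain, to 10.1 and 7.71 CPM (-1.75, adjusted p = 0.04). The other markers had log2 fold changes between -1.38 in mfm1 and 1.04 in mam2 in S2A against WT, none of them called. No marker was at 0 reads in any library. The part of mating type in the S2A values was not tested, but S2A-S7A and S7A are both h- and are also compared. In bulk RNA, fewer cells that make an RNA and less RNA per cell cannot be told apart. Whether the counting used the strand is not given in the sources used here. SPNCRNA.847, which lies wholly inside nog2 on the other strand, had 0.594 and 0.387 CPM (13 and 9 reads) in WT, where nog2 had 373.6 and 426.5 CPM.

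Members were higher in S2A more often than features at large. Of 321 tested, 62 rose (19.3%) and 14 fell (4.36%) in S2A against WT, where 7.17% of all 6420 features rose and 4.72% fell. The median log2 fold change of the members was 0.30, against -0.01 over all features. With the replicate number as a block, 133 members were called (95 higher, 38 lower), beside 29.4% of all features. RNAs antisense to 1 feature rose in 196 of 770 cases (25.5%, median 0.50) and those antisense to none in 16 of 241 (6.64%, median 0.06). The summed level of the 332 RNAs was 5902 and 6126 CPM in S2A, against 4658 and 4800 CPM in WT, so both S2A libraries stood above both WT libraries. The RNAs that rose did so by log2 fold changes of 0.54 to 4.83 with a median of 1.85, and 54 of them more than doubled. Of the 76 calls, 35 (34 higher, 1 lower) were kept whichever of the 4 S2A and WT libraries was left out, and the count was 41 without WT replicate 1, 45 without WT replicate 2 and 50 without S2A replicate 1.

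**Figure D2:**
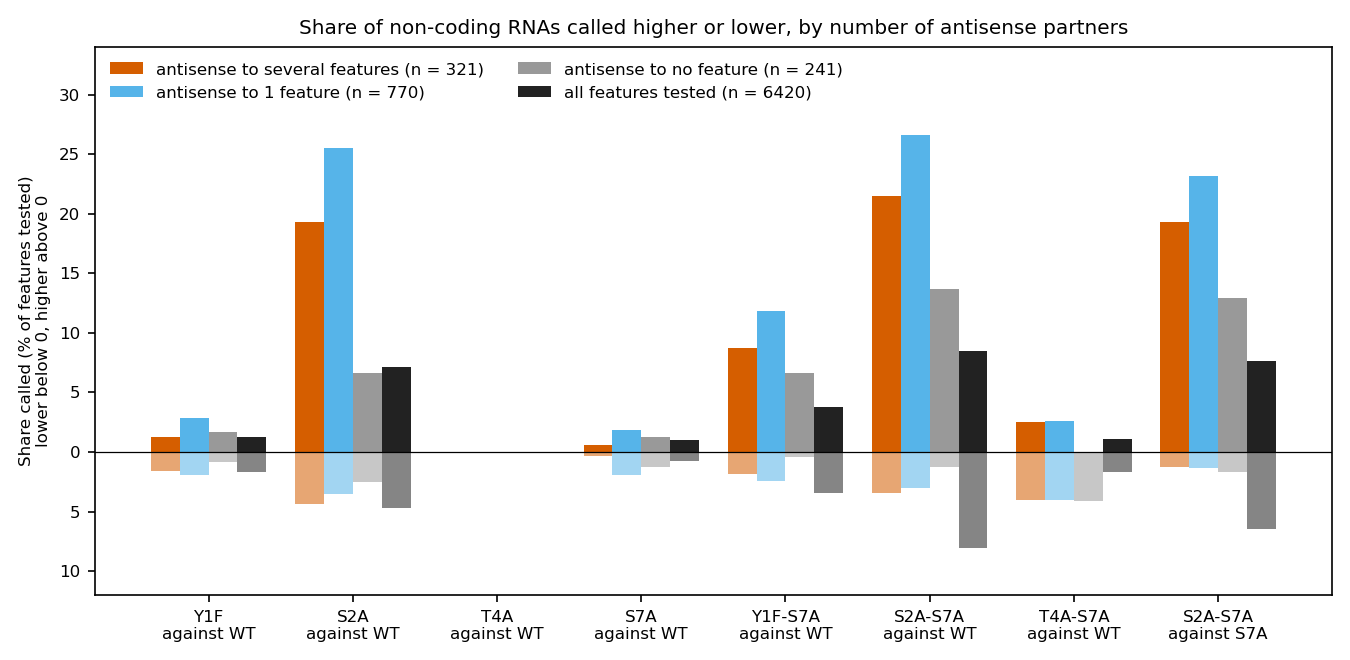
Percent of features called higher or lower in 8 comparisons, for the RNAs antisense to several features (n = 321 tested), RNAs antisense to 1 feature (770), RNAs antisense to none (241) and all features (6420), as bars from 0. In S2A against WT the higher bars stand at 19.3%, 25.5%, 6.64% and 7.17% in that order, and in T4A against WT no RNA of the 3 non-coding classes was called.

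The 8 named RNAs with the largest increases in S2A each lay opposite at least 1 protein-coding gene. The rule for naming asked that both S2A libraries lie beyond both WT libraries, so this separation is not separate evidence for them. SPNCRNA.735 (chrI:1343999-1345867, plus strand) overlaps 859 bases of cut9, which encodes a subunit of the anaphase-promoting complex, and 944 bases of mtr4, which encodes the helicase of the nuclear exosome. It had 21.7 and 23.1 CPM in S2A, against 1.92 and 1.98 CPM in WT. In the strains without S2A the highest library had 6.36 CPM, and the log2 fold change was 3.52 ± 0.36 (adjusted p = 9.2e-05). SPNCRNA.678 (chrI:736520-738893, minus strand) covers all of kri1, a ribosome biogenesis gene, and 84 bases of the 3′ end of pan2, which encodes a subunit of an mRNA deadenylase. It had 56.2 and 63.0 CPM in S2A, against 7.08 and 4.51 CPM in WT, a log2 fold change of 3.36 ± 0.28 (adjusted p = 3.1e-05). SPNCRNA.1491 (chrII:2163936-2167085, minus strand) runs from the splicing gene prp16 through all of pwp1, another ribosome biogenesis gene. It had 24.1 and 20.0 CPM in S2A, against 1.83 and 3.05 CPM in WT (3.17 ± 0.34, adjusted p = 0.00011). In each of these RNAs leaving out any 1 library kept the call.

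SPNCRNA.1289 (chrIII:2331324-2332742, plus strand) covers the 5′ end of ubp12, a ubiquitin protease gene, and reaches 55 bases into dbp9, a ribosome assembly helicase gene. It had 22.8 and 14.9 CPM in S2A, against 2.42 and 0.86 CPM in WT (log2 fold change 3.53 ± 0.48, adjusted p = 0.0005). SPNCRNA.1539 (chrII:2641751-2643255, minus strand), opposite the splicing gene prp1, had 18.2 and 13.7 CPM in S2A, against 1.10 and 1.33 CPM in WT (3.71 ± 0.59, adjusted p = 0.0015). Both were clear of WT in both libraries, as the rule for naming required. SPNCRNA.847, inside nog2, a ribosome biogenesis gene, and across the snoRNA gene snR191, had the largest fold change of those named, 4.17 ± 0.56 (adjusted p = 0.00048). It had 8.87 and 8.85 CPM in S2A, against 0.594 and 0.387 CPM in WT. The remaining named RNAs rested on few WT reads and lost the call without 1 library. SPNCRNA.1438, over the 5′ end of cdc2, the cyclin-dependent kinase gene, had 10.4 and 8.17 CPM in S2A, against 0.366 and 1.25 CPM in WT (3.51 ± 0.74, adjusted p = 0.0087, lost without WT replicate 1). SPNCRNA.750 had 7.71 and 4.20 CPM in S2A, against 0.594 and 0.344 CPM in WT (3.66 ± 0.74, adjusted p = 0.0069, lost without WT replicate 2).

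**Figure D3:**
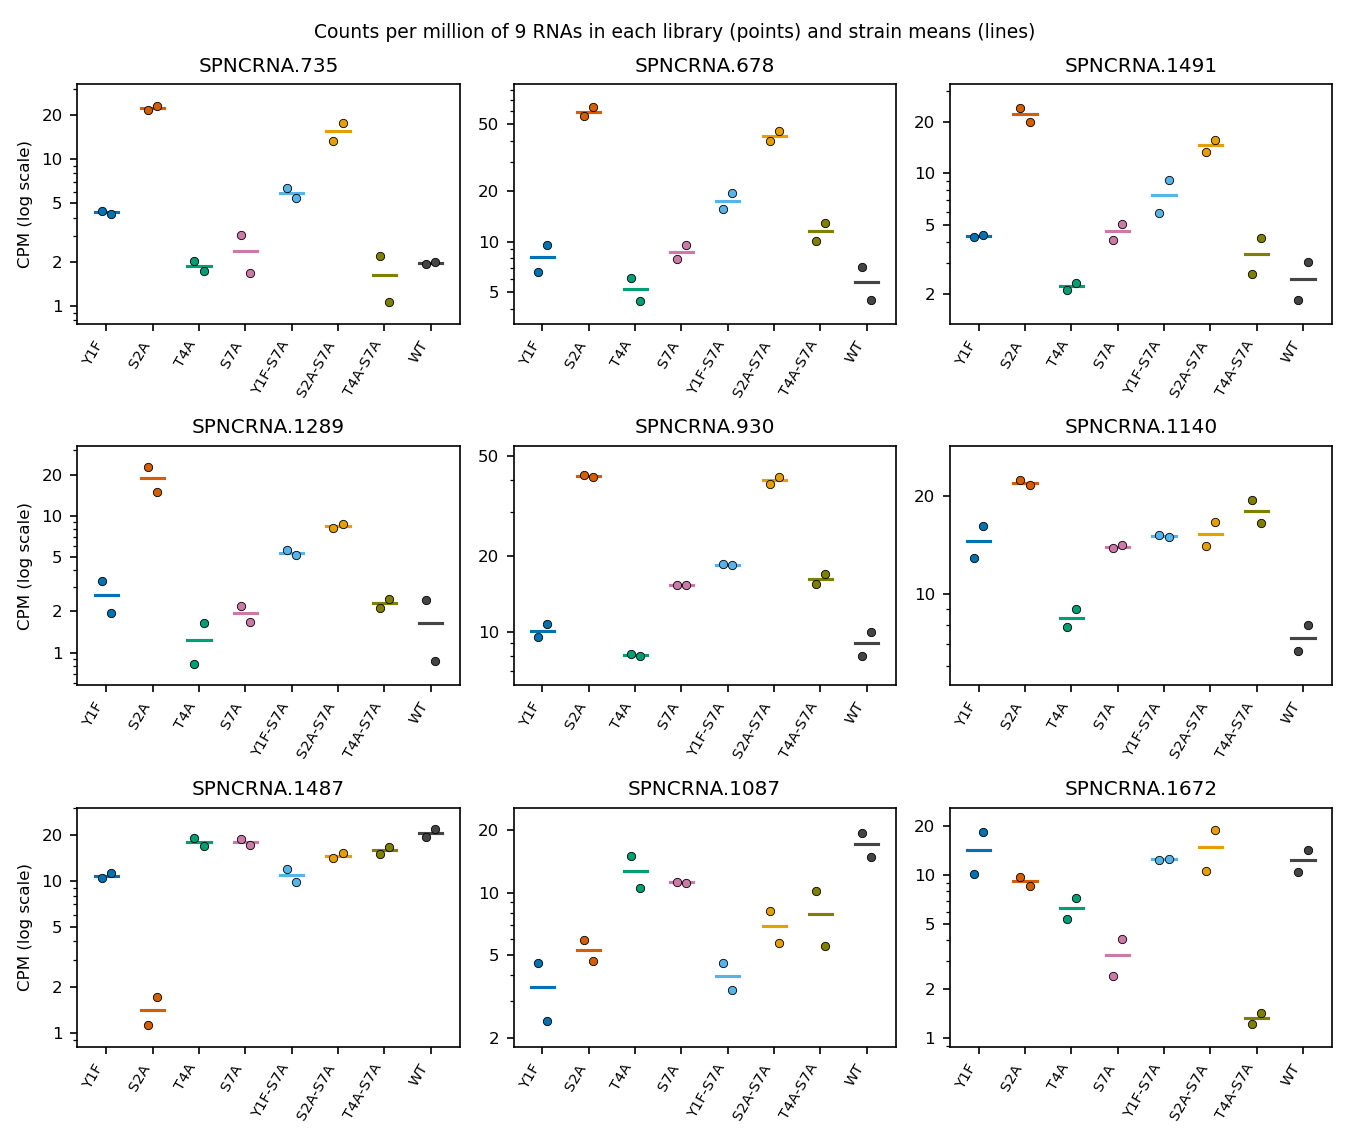
CPM of 9 antisense RNAs in each of the 16 libraries on a log axis, 1 panel per RNA, with strains along the x axis, 1 point per library and a line at each strain's mean. SPNCRNA.735, SPNCRNA.678, SPNCRNA.1491 and SPNCRNA.1289 stand highest in S2A, SPNCRNA.1487 drops to 1.13 and 1.72 CPM in S2A against 19.3 and 21.8 CPM in WT, and SPNCRNA.1672 is lowest in T4A-S7A at 1.22 and 1.43 CPM.

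The 14 RNAs that fell in S2A did so by a median log2 fold change of -1.55. The largest change was that of SPNCRNA.1487 (chrII:2120212-2121384, minus strand), which covers mag2, a DNA repair glycosylase gene, and the snoRNA gene snR92. It had 1.13 and 1.72 CPM in S2A, against 19.3 and 21.8 CPM in WT (-3.86 ± 0.24, adjusted p = 5.7e-06). Its partner mag2 had 0.205 and 0.181 CPM in S2A, against 1.69 and 0.473 CPM in WT, and fell as well (-2.44 ± 0.65, adjusted p = 0.03). The mag2 values rest on few reads, and its WT libraries lay far apart. S2A differs from all other strains in mating type, and S2A-S7A, which is h-, had 14.1 and 15.2 CPM of SPNCRNA.1487. SPNCRNA.703, over the 5′ end of moc3 and the 3′ end of slp1, an activator of the anaphase-promoting complex, had 4.13 and 5.19 CPM in S2A, against 14.8 and 19.6 CPM in WT (-1.88 ± 0.35, adjusted p = 0.0044, lost without S2A replicate 1). SPNCRNA.1087, opposite gto1, had 5.90 and 4.69 CPM in S2A, against 19.3 and 14.8 CPM in WT (-1.68 ± 0.37, adjusted p = 0.012). The others named by the rule were SPNCRNA.1356 (-1.64), SPNCRNA.1086 (-1.59), SPNCRNA.1268 (-1.47), SPNCRNA.645 (-1.28) and SPNCRNA.1361 (-1.24). SPNCRNA.1087 and these 5 each lost the call in at least 3 of the 4 fits that left out a library.

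The share that rose in S2A differed with the layout of the RNA, given here as counts with no test of the difference. Among RNAs that cover the 5′ end of a coding gene, 59 of 273 rose (21.6%), and among the others 3 of 48 (6.25%). Among RNAs with protein-coding partners only, 50 of 192 rose (26.0%), and of the 22 tested RNAs with no protein-coding partner 0 rose. Those 22 can cover no coding 5′ end and so are among the 48, which makes these splits overlap. Where another feature on the RNA's own strand ended within 200 bases upstream or lay over its start, 15 of 46 rose (32.6%), and elsewhere 47 of 275 (17.1%). RNAs wider than the median rose in 39 of 166 cases (23.5%) and the narrower ones in 23 of 155 (14.8%). The level moved with these splits: the median average log2 CPM was 3.14 with a covered coding 5′ end and 2.44 without, 3.87 with a near upstream feature and 2.88 without, and 3.59 in the wider RNAs and 2.25 in the narrower. The part of level in these shares was not tested.

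In S2A-S7A, 69 members rose (21.5%) and 11 fell (3.43%) against WT, where 8.49% of all features rose and 8.04% fell. The median log2 fold change was 0.37, with the replicate block 143 members were called (117 higher, 26 lower) beside 37.9% of all features, and 31 of the 80 calls were kept whichever library was left out. The count was 40 without WT replicate 2, 41 without S2A-S7A replicate 2 and 46 without WT replicate 1. SPNCRNA.1041 (chrI:4986628-4989780, plus strand) covers nearly all of ure2, the urease gene, and 56 bases of csn71, which encodes a COP9 signalosome subunit. It had 12.8 and 16.9 CPM in S2A-S7A, against 1.74 and 1.85 CPM in WT (3.04 ± 0.30, adjusted p = 9.7e-05). SPNCRNA.735 had 13.4 and 17.7 CPM in S2A-S7A, against 1.92 and 1.98 CPM in WT (2.99 ± 0.36, adjusted p = 0.00027). SPNCRNA.871, over most of dni1, a cell fusion gene, and the 3′ end of rrg8, had 19.8 and 23.7 CPM in S2A-S7A, against 2.28 and 3.52 CPM in WT (2.90 ± 0.34, adjusted p = 0.00023). For all 3 the double mutant's libraries lay above those of WT, as the rule for naming required. SPNCRNA.750 rose by 3.53 ± 0.74 on the log2 scale (adjusted p = 0.0076, lost without WT replicate 2). Of the 11 that fell the largest change was -2.04, and the lowest of those named by the rule, which asks that the average log2 CPM reach 1 and that groups not overlap, were SPNCRNA.802 (-1.70), SPNCRNA.655 (-1.59), SPNCRNA.1268 (-1.40) and SPNCRNA.1087 (-1.29), each of which lost the call in at least 2 of the 4 fits.

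S2A-S7A against S7A compares strains that are both h- and shares no library with S2A against WT. Here 62 members rose (19.3%) and 4 fell (1.25%), where 7.62% of all features rose and 6.5% fell. With the replicate block, 111 were called (96 higher, 15 lower) beside 33.4% of all features. Of the RNAs that rose, 42 had also risen in S2A against WT, which is 67.7% of either list, and of those that fell, 3 were shared, 75.0% of the 4 and 21.4% of the 14. The overlap over all features was not counted, so whether these shares are particular to the members is not known. No RNA was called in opposite directions. The count fell to 33 without S7A replicate 2 or without S2A-S7A replicate 2 and to 38 without S7A replicate 1, and 24 calls, all higher, were kept in each of the 4 fits. SPNCRNA.605 (chrI:90949-94038, plus strand) had 49.7 and 59.7 CPM in S2A-S7A, against 4.59 and 5.49 CPM in S7A (3.44 ± 0.49, adjusted p = 0.00094). It also overlaps another feature on its own strand over 26.1% of its length. Its antisense neighbour SPNCRNA.604, itself a member, had 6.38 and 4.89 CPM in S2A-S7A, against 0.257 and 1.13 CPM in S7A (3.07 ± 0.79, adjusted p = 0.024, lost in 3 of the 4 fits). SPNCRNA.697, opposite qtr1 and the kinetochore gene mis6, had 8.30 and 14.2 CPM in S2A-S7A, against 1.28 and 1.62 CPM in S7A (2.95 ± 0.42, adjusted p = 0.00097). WT lay between the 2 strains for SPNCRNA.605 and SPNCRNA.697: SPNCRNA.605 had 15.5 and 20.8 CPM in WT and SPNCRNA.697 had 3.98 and 3.40 CPM in WT. The lowest were SPNCRNA.1268 (-1.26), SPNCRNA.703 (-1.21) and SPNCRNA.797 (-0.99), each lost in at least 2 of the 4 fits.

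In single mutants other than S2A the main test called 9 members in Y1F, 3 in S7A and 0 in T4A, of 321 tested. Their share was 2.8% beside 2.96% of all features in Y1F, 0.935% beside 1.71% in S7A and 0 beside 0.0935% in T4A. Counts this small do not set the members apart from all features. For T4A the members' share stood above that of all features with the replicate block (4.36% beside 1.64%) and with DESeq2 (2.11% beside 0.972%). All comparisons with WT share the same WT libraries. In Y1F, 4 rose and 5 fell, where 1.29% of all features rose and 1.67% fell, and the members' median log2 fold change was 0.02. The replicate block called 39 (18 higher, 21 lower) beside 12.6% of all features, and no call was kept in all 4 fits that left out a library, the count being 0 without WT replicate 1 or Y1F replicate 2, 2 without Y1F replicate 1 and 3 without WT replicate 2. SPNCRNA.871 had 9.71 and 8.11 CPM in Y1F, against 2.28 and 3.52 CPM in WT (1.61 ± 0.33, adjusted p = 0.024). SPNCRNA.1573, across zng1 and the 5′ end of naa30, an N-terminal acetyltransferase gene, had 10.6 and 10.7 CPM in Y1F, against 3.75 and 3.91 CPM in WT (1.47 ± 0.26, adjusted p = 0.013). The groups were apart for both, which the rule for naming required. SPNCRNA.1140 (0.98) and SPNCRNA.1212, opposite the splicing kinase gene prp4 and dus4 (0.96), were the other 2 that rose. SPNCRNA.1087 had 4.59 and 2.41 CPM in Y1F, against 19.3 and 14.8 CPM in WT (-2.29 ± 0.39, adjusted p = 0.01), and lost the call without either of WT replicate 1 and Y1F replicate 2. SPNCRNA.871 and SPNCRNA.1573 lost theirs whichever library was left out. SPNCRNA.1268 (-1.37), SPNCRNA.1487 (-0.92), SPNCRNA.304 and SPNCRNA.1347 fell too. SPNCRNA.304 and SPNCRNA.1347 (both -1.05) overlap features of their own strand over 99.4% and 93.5% of their lengths, each other included, and had the same reads in almost every library, so they are in effect 1 measurement.

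In S7A, 2 members rose and 1 fell, where 0.997% of all features rose and 0.717% fell, with a members' median of 0.03. With the replicate block 22 were called (12 higher, 10 lower) beside 8.1% of all features, and none of the 3 calls held when any of the 4 libraries was left out. SPNCRNA.930 (chrI:3711920-3716625, minus strand) covers all of sgo2, a shugoshin gene of chromosome segregation, and the 3′ part of ppk3, a kinase-like gene. It had 15.3 and 15.4 CPM in S7A, against 8.00 and 10.0 CPM in WT (0.77 ± 0.15, adjusted p = 0.03). SPNCRNA.1140 (chrIII:468550-470462, plus strand), across the 5′ end of aph1, a nucleotide hydrolase gene, into ser3, a serine synthesis gene, had 13.8 and 14.1 CPM in S7A, against 6.67 and 7.99 CPM in WT (0.93 ± 0.19, adjusted p = 0.034). SPNCRNA.1672, over the 5′ end of the kinetochore gene cnp3, fell to 2.42 and 4.07 CPM in S7A, against 10.5 and 14.4 CPM in WT (-1.94 ± 0.38, adjusted p = 0.026). The 2 groups did not overlap for any of the 3, which the rule for naming required. Leaving out a library gave log2 fold changes of 0.62 to 0.95 for SPNCRNA.930, 0.80 to 1.07 for SPNCRNA.1140 and -2.35 to -1.62 for SPNCRNA.1672.

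In T4A, edgeR's quasi-likelihood test called 0 members in either direction, where 0.0156% of all features rose and 0.0779% fell. At an unadjusted p under 0.05 there were 59 of the 321 members and 492 of the 6420 features. The replicate block called 14 members (2 higher, 12 lower), which is 4.36% beside 1.64% of all features. DESeq2 called 7 (2 higher, 5 lower), which is 2.11% beside 0.972% of all features. Without reaching single calls, the members' values lay low in T4A: 80 of the 321 had a positive log2 fold change and the median was -0.26, against 0.01 over all features. RNAs antisense to 1 feature had a median of -0.29 and those antisense to none -0.43. The median member had 5.11 and 5.51 CPM in T4A, against 6.67 and 6.34 CPM in WT.

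In Y1F-S7A, 28 members rose (8.72%) and 6 fell (1.87%) against WT, where 3.74% of all features rose and 3.47% fell, and the members' median was 0.15. The replicate block called 94 (68 higher, 26 lower) beside 24.9% of all features. Leaving out a library gave between 8 calls, without Y1F-S7A replicate 2, and 18, without Y1F-S7A replicate 1, with 10 without either WT library, and 5 calls were kept in every such fit. SPNCRNA.871 had 20.3 and 11.1 CPM in Y1F-S7A, against 2.28 and 3.52 CPM in WT (2.43 ± 0.33, adjusted p = 0.0019), and was among those kept. SPNCRNA.1592, over the 5′ end of dph2, a diphthamide synthesis gene, had 7.47 and 4.80 CPM in Y1F-S7A, against 1.69 and 1.93 CPM in WT (1.76 ± 0.32, adjusted p = 0.008). Both double mutant libraries were above both WT libraries in each, as the rule for naming required. SPNCRNA.750 (2.77) and SPNCRNA.1289 (1.72) completed the highest 4. SPNCRNA.1087 was lowest with 4.58 and 3.39 CPM in Y1F-S7A, against 19.3 and 14.8 CPM in WT (-2.09 ± 0.38, adjusted p = 0.0078, lost without Y1F-S7A replicate 2). SPNCRNA.1184 (-1.71), SPNCRNA.703 (-1.30) and SPNCRNA.1268 (-1.23) followed. SPNCRNA.750, SPNCRNA.1184 and SPNCRNA.703 lost the call in each of the 4 fits, and SPNCRNA.1289, SPNCRNA.1592 and SPNCRNA.1268 in 3 of them.

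T4A-S7A was the only mutant in which more members fell than rose among those with over 10 calls: 8 rose (2.49%) and 13 fell (4.05%), where 1.11% of all features rose and 1.68% fell. The members' median was -0.15. The replicate block called 53 (16 higher, 37 lower) beside 10.9% of all features, and the counts without 1 library were 2 without WT replicate 1, 3 without T4A-S7A replicate 1, 4 without T4A-S7A replicate 2 and 7 without WT replicate 2. SPNCRNA.1672 (chrII:4128866-4129750, plus strand) had 1.22 and 1.43 CPM in T4A-S7A, against 10.5 and 14.4 CPM in WT (-3.23 ± 0.41, adjusted p = 0.0017), the 1 call kept in every such fit. Its coding partner cnp3 had 50.4 and 56.5 CPM in T4A-S7A, against 150.9 and 177.0 CPM in WT, and fell too (-1.62 ± 0.23, adjusted p = 0.0041). Its antisense neighbour SPNCRNA.1673 (chrII:4129491-4131375, minus strand) had 2.41 and 5.07 CPM in T4A-S7A, against 15.9 and 18.4 CPM in WT (-2.22 ± 0.41, adjusted p = 0.016, lost in 3 of the 4 fits). All these values were clear of WT, which the rule for naming required of the 2 RNAs but not of cnp3. The other partners of SPNCRNA.1673 moved the same way, and abp2, which encodes an origin-binding protein, had 43.7 and 52.8 CPM in T4A-S7A, against 118.6 and 127.6 CPM in WT (-1.35 ± 0.13, adjusted p = 0.00041).

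Among the RNAs that rose in T4A-S7A, SPNCRNA.1115 (chrIII:170340-174289, plus strand) was by far the most abundant of those named, with 984.7 and 728.6 CPM in T4A-S7A, against 203.2 and 168.3 CPM in WT (2.21 ± 0.46, adjusted p = 0.025). Other features of its own strand overlap 70.1% of it, so its reads may be shared, and the call was lost in each of the 4 fits. SPNCRNA.1667, across SPBC56F2.07c and into puf1, an RNA-binding protein gene, had 8.23 and 7.50 CPM in T4A-S7A, against 3.15 and 2.62 CPM in WT (1.45 ± 0.29, adjusted p = 0.023). SPNCRNA.1592 (1.43) and SPNCRNA.1140 (1.29) followed. SPNCRNA.1140 lost the call without WT replicate 1 alone, while SPNCRNA.1667 and SPNCRNA.1592 lost it in all 4 fits. SPNCRNA.889 was called in both directions: it had 29.9 and 40.1 CPM in S2A, 31.0 and 45.1 CPM in S2A-S7A and 4.57 and 7.50 CPM in T4A-S7A, against 17.2 and 16.0 CPM in WT. Its log2 fold changes were 1.07 ± 0.26 in S2A (adjusted p = 0.018), 1.19 ± 0.26 in S2A-S7A (adjusted p = 0.0094) and -1.47 ± 0.27 in T4A-S7A (adjusted p = 0.016), the last lost in 3 of the 4 fits. The RNA antisense to cbl1, SPNCRNA.1197, fell by 1.58 on the log2 scale in T4A-S7A (adjusted p = 0.027) together with cbl1 (-1.06 ± 0.13, adjusted p = 0.0013).

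**Figure D4:**
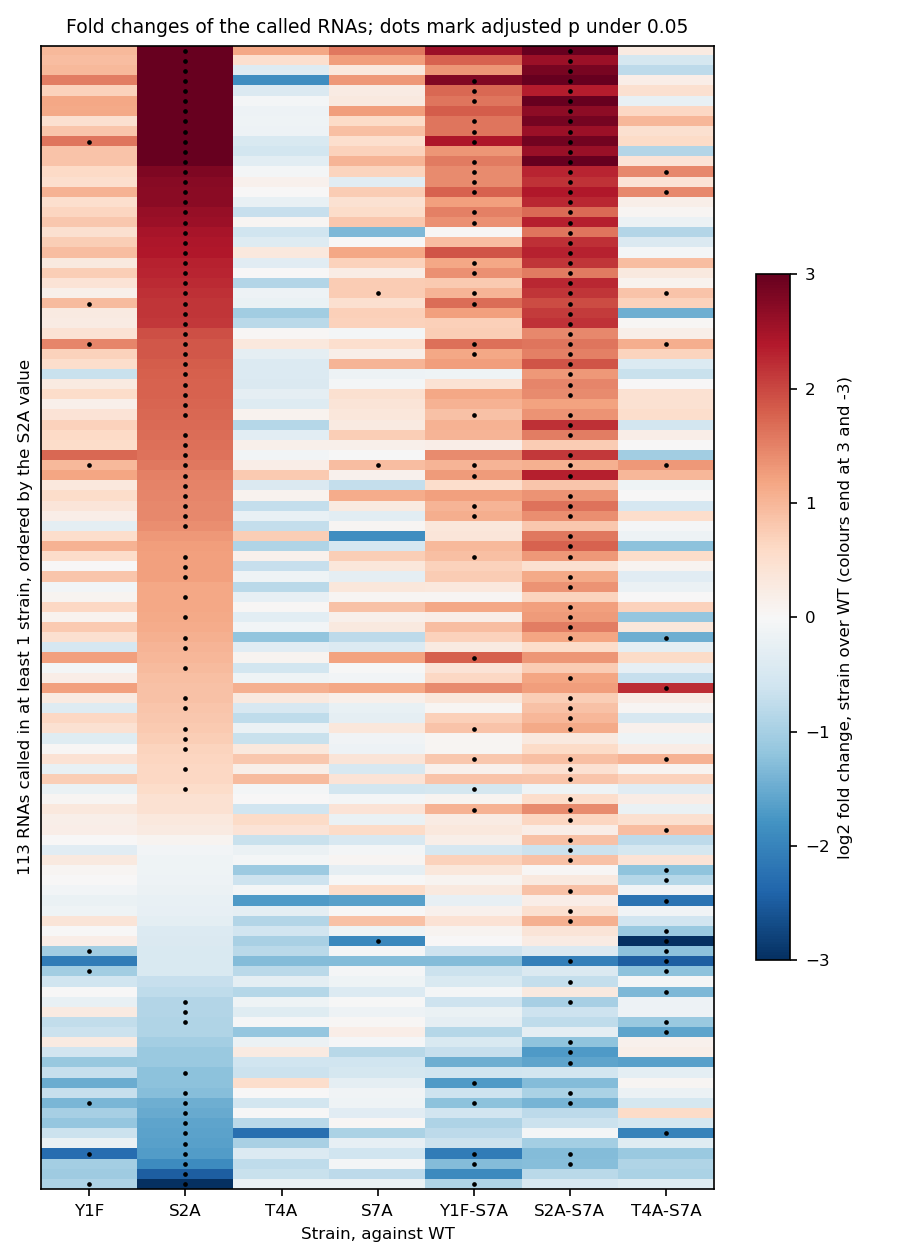
Log2 fold change against WT (colour, ends of the scale at 3 and -3) of the 113 RNAs called in at least 1 of the 7 comparisons with WT, 1 row per RNA sorted by the S2A value and 1 column per mutant, with dots where the adjusted p was under 0.05. Most dots lie in the S2A and S2A-S7A columns among rows of positive values, and the T4A column has none.

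Few features of any kind were called when S7A was added to another replacement. Against Y1F, the edgeR test called 0 members of Y1F-S7A, where 0.0156% of all features rose, with 27 members and 370 features at an unadjusted p under 0.05, 4 members by DESeq2, beside 0.942% of all features, and 5 with the replicate block beside 1.36% of all features. Against S2A, 3 members of S2A-S7A rose and 0 fell, where 0.343% of all features rose and 0.14% fell, and the block called 25 (19 higher, 6 lower) beside 10.6% of all features. They were SPNCRNA.1487 with 14.1 and 15.2 CPM in S2A-S7A, against 1.13 and 1.72 CPM in S2A (3.38 ± 0.23, adjusted p = 4.5e-05), SPNCRNA.783, opposite the stress regulator gene hsr1 (1.05 ± 0.20, adjusted p = 0.048), and SPNCRNA.1203, opposite the glucose receptor gene git3 and the meiotic recombination gene rec7 (0.72 ± 0.13, adjusted p = 0.044). Of the 3, SPNCRNA.1487 alone kept the call when a library was left out, which leaves a count of 1, and this comparison changes mating type too. Against T4A, 2 members of T4A-S7A rose and 0 fell, where 0.14% of all features rose and 0.0467% fell, and the block called 16 (11 higher, 5 lower) beside 2.51%. SPNCRNA.930 had 15.5 and 16.9 CPM in T4A-S7A, against 8.14 and 8.00 CPM in T4A (1.00 ± 0.15, adjusted p = 0.029). SPNCRNA.1140 had 19.4 and 16.5 CPM in T4A-S7A, against 7.87 and 8.98 CPM in T4A (1.10 ± 0.19, adjusted p = 0.048). Their libraries did not overlap, as the rule for naming required. Neither call held in any of the 4 fits that left out a library, which leaves a count of 0.

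A joint test over all 8 strains called 118 of the 321 members, where 22.3% of all features were called, and 208 with the replicate block beside 57.9%. The count stayed between 91 and 116 when each of the 16 libraries was left out. The 5 members with the smallest adjusted p were SPNCRNA.930, SPNCRNA.992, SPNCRNA.678, SPNCRNA.763 and SPNCRNA.1041, all kept in the 16 fits. SPNCRNA.930 had 41.9 and 41.2 CPM in S2A, 38.7 and 41.3 CPM in S2A-S7A, 18.5 and 18.4 CPM in Y1F-S7A, 15.5 and 16.9 CPM in T4A-S7A, 15.3 and 15.4 CPM in S7A, 9.52 and 10.7 CPM in Y1F and 8.14 and 8.00 CPM in T4A, against 8.00 and 10.0 CPM in WT. The S2A strains were highest, the other S7A strains intermediate, and Y1F and T4A overlapped the range of WT (joint adjusted p = 4.5e-06). SPNCRNA.992, opposite ric1 and the glycine-tRNA ligase gene grp1, had 48.8 and 42.8 CPM in S2A and 38.5 and 35.4 CPM in S2A-S7A, against 13.4 and 13.2 CPM in WT, and between 9.40 and 18.1 CPM in every other library (joint adjusted p = 1.4e-05). SPNCRNA.763, opposite dld1, a mitochondrial dehydrogenase gene, and sgt1, added Y1F-S7A to the high strains. It had 39.1 and 37.5 CPM in S2A, 38.9 and 36.5 CPM in S2A-S7A and 30.7 and 29.5 CPM in Y1F-S7A, against 15.5 and 13.0 CPM in WT.

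Of the protein-coding genes opposite these RNAs, a smaller share rose and a larger share fell in S2A than of all features, which include the non-coding RNAs. This difference was not tested. Of 508 tested coding partners, 14 rose (2.76%, beside 7.17% of all features) and 34 fell (6.69%, beside 4.72%) in S2A. Both directions together made 9.45%, beside 11.9% of all features, and the median log2 fold change was -0.07. With the replicate block 54 rose (10.6%, beside 15.4%) and 101 fell (19.9%, beside 14.0%), together 30.5% beside 29.4%. Partners of the 62 RNAs that rose numbered 112, of which 1 rose and 9 fell (8.04%), with a median of -0.12, and 8 and 31 with the block. Partners of RNAs that were not called numbered 372, of which 11 rose and 21 fell (5.65%), with a median of -0.06, and 43 and 64 with the block. Partners of the 14 RNAs that fell numbered 20, of which 1 rose and 5 fell (25.0%), with a median of -0.25, and 1 and 8 with the block. Named examples are cut9 (0.31), mtr4 (-0.29), kri1 (-0.30), pwp1 (-0.16) and cdc2 (0.07), none of them called in S2A, where the RNAs opposite them rose. An RNA and gene that parted were SPNCRNA.1212 and dus4, a tRNA modification gene: the RNA had 56.3 and 64.4 CPM in S2A, against 14.1 and 13.1 CPM in WT (2.15 ± 0.22, adjusted p = 9.2e-05), and dus4 had 26.8 and 27.1 CPM in S2A, against 40.4 and 35.9 CPM in WT (-0.50 ± 0.13, adjusted p = 0.025). Pairs that fell together were SPNCRNA.1087 with gto1 (-1.03 ± 0.13, adjusted p = 0.00033) and SPNCRNA.1268 with SPCC1620.13 (-1.52 ± 0.21, adjusted p = 0.00059). Across the 514 coding pairs the log2 fold changes of RNA and gene in S2A had a Pearson r of -0.01, and across the 145 pairs with another kind of partner 0.39, each pair measured in the same libraries and some features counted in several pairs. The 8 non-coding partners of RNAs that rose had a median of 0.81, and 3 of them rose.

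**Figure D5:**
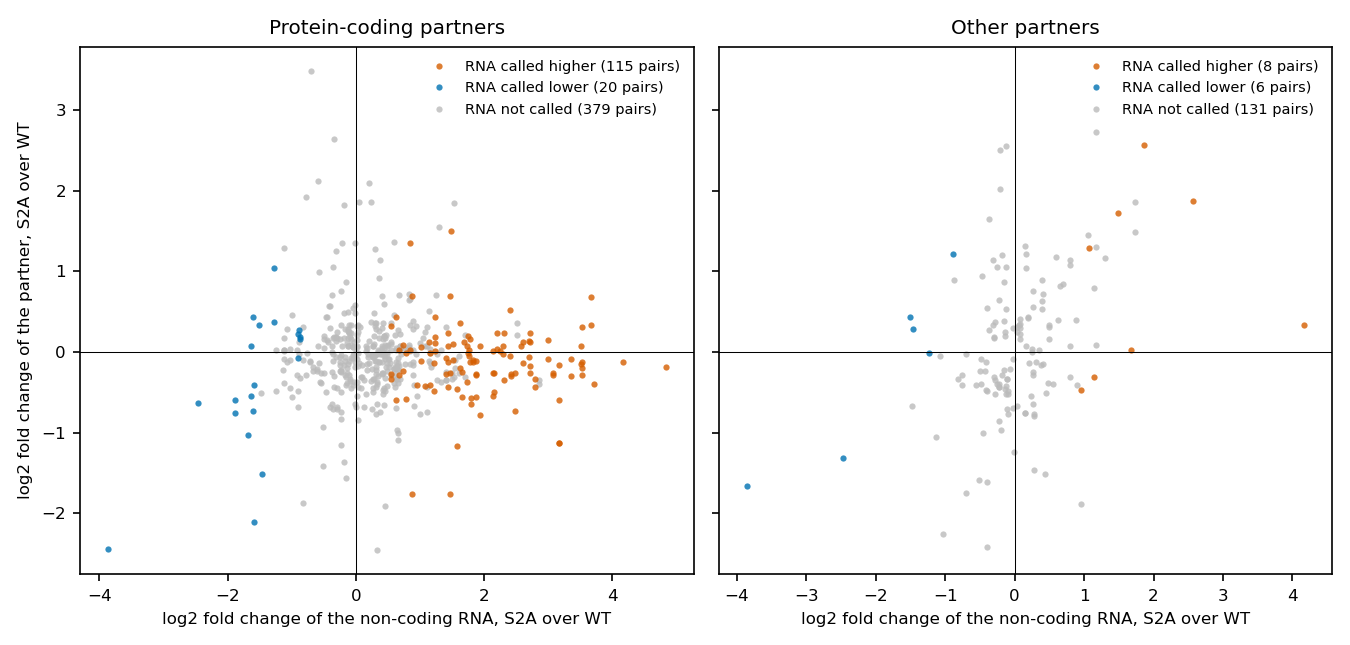
Log2 fold change in S2A against WT of each antisense RNA (x axis) and of the feature opposite it (y axis), 1 point per pair, for protein-coding partners and for other partners, coloured by whether the RNA rose, fell or was not called. The 115 coding pairs of RNAs that rose are spread on both sides of 0 on the y axis, with a median of -0.12 over their 112 genes.

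In S2A-S7A against WT, the 122 coding partners of RNAs that rose included 7 that rose and 18 that fell (14.8%), with a median of -0.24, and 15 and 56 with the block. The 362 partners of RNAs not called included 17 and 39 (10.8%), with a median of -0.07, and 48 and 89 with the block. In S2A-S7A against S7A, 14 of 107 partners of RNAs that rose fell (13.1%, median -0.15), 35 with the block, and 28 of 390 partners of RNAs not called (7.18%, median -0.07), 85 with the block. In T4A-S7A the RNAs that fell had 12 tested non-coding partners, of which 5 fell, with a median of -1.90. SPNCRNA.1672 and SPNCRNA.1673 both fell and are partners of each other, so each counts as an RNA and as a partner. SPNCRNA.304 and SPNCRNA.1347, in effect 1 measurement, are both among the RNAs that fell. These groups of partners were not tested against each other.

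A list of 30 genes known in fission yeast for limiting antisense or non-coding RNA was tested whole. In S2A against WT 2 rose and 0 fell, and with the replicate block 7 and 4, where 11.9% of all features were called without the block and 29.4% with it. In S2A-S7A against WT 1 rose and 2 fell, and with the block 3 and 8, where 16.5% and 37.9% of all features were called. In Y1F-S7A the counts were 1 and 2, and 1 and 8 with the block, where 7.21% and 24.9% of all features were called. Called without the block were red1 in Y1F, pst2 and red1 in S2A, red1, clr4 and mtl1 in Y1F-S7A, red1, hrp1 and mtr4 in S2A-S7A, and none in T4A, S7A or T4A-S7A, each against WT. The gene red1, whose product acts in nuclear elimination of meiotic RNAs, rose wherever it was called: it had 135.1 and 125.7 CPM in S2A and 130.3 and 144.0 CPM in S2A-S7A, against 97.4 and 97.9 CPM in WT (0.42 ± 0.10, adjusted p = 0.021, and 0.49 ± 0.10, adjusted p = 0.0079). Its rise was much alike in every mutant against the shared WT libraries, from 0.38 in T4A-S7A to 0.49 in S2A-S7A. With the replicate block red1 was also called in T4A (0.40), S7A (0.41) and T4A-S7A. The chromatin remodeller gene hrp1 fell to 120.7 and 107.9 CPM in S2A-S7A, against 195.8 and 170.9 CPM in WT (-0.68 ± 0.14, adjusted p = 0.0078), and had 157.0 and 135.2 CPM in S2A (-0.33 ± 0.14, adjusted p = 0.18). The exosome helicase gene mtr4 fell in S2A-S7A (-0.45 ± 0.13, adjusted p = 0.031), and pst2, of a histone deacetylase complex, rose in S2A (0.59 ± 0.16, adjusted p = 0.032). The heterochromatin methyltransferase gene clr4 (-0.61) and the helicase gene mtl1 (-0.43) fell in Y1F-S7A. Against S7A, cph1 (-0.43), hrp1 (-0.57) and spt16 (-0.42) fell in S2A-S7A and 0 genes rose, and with the block 11 fell and 2 rose, where 14.1% and 33.4% of all features were called. Against S2A, 0 genes of the list were called in S2A-S7A, and with the block 10 fell and 0 rose, where 0.483% and 10.6% of all features were called. Against Y1F and T4A the double mutants had 0 called, and with the block 1 fell in Y1F-S7A against Y1F.

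In 320 members, 2 short motifs were searched on both strands by letter match. TNAAAC, the core of the element by which Mmi1 marks meiotic RNAs for removal, occurred 1.90 times per kilobase on the members' own strand and 2.06 on the other, against 1.97 and 1.93 in 772 RNAs antisense to 1 feature and 2.35 and 2.44 in 318 antisense to none. AATAAA, a polyadenylation signal, was found in the last 100 bases of 82 of 320 members (25.6%), against 24.7% and 23.3% in those classes. Median GC content was 35.5% in the members, 35.5% in RNAs antisense to 1 feature and 32.1% in those antisense to none. SPNCRNA.1140 and SPNCRNA.1289 hold 1 TNAAAC each in the stretches printed above, and the other 5 stretches hold none. A match is a run of letters only.

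In the authors' deposited table, adjusted p-values of the authors' own test were under 0.05 for 50 members higher and 20 lower in S2A against WT of 331 with a value, and over all features for 285 higher and 349 lower of 6699. For S2A-S7A against WT the authors' deposited table gives 38 members higher and 9 lower, and 226 and 295 features of 6718. For Y1F that table gives 2 members higher and 1 lower, beside 38 and 72 of all features, and for T4A 0 and 1, beside 3 and 12. For S7A it gives 1 and 3, beside 47 and 55, for Y1F-S7A 3 and 3, beside 92 and 100, and for T4A-S7A 3 and 5, beside 35 and 78.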

How the data were processed

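Polyadenylated RNA from 16 libraries was sequenced as stranded, paired-end Illumina libraries, per the labels' protocols. Bowtie 0.12.7 is named in the submitters' processing notes; of genome build, annotation, counting tool and use of strand, the sources used here give nothing. Per feature, the deposited table holds, per the file headers, read counts, log2 RPKM values (used here only to compare levels between genes), and the authors' ratios as log2 fold changes with adjusted p-values. Counts were tested in R 4.3.3 with edgeR 4.0.16 (filterByExpr by strain, TMM, robust quasi-likelihood fit, 1 coefficient per strain over all 16 libraries, 8 residual degrees of freedom, two-sided). The P-values were adjusted by Benjamini-Hochberg over 6420 features and called under 0.05. With 2 libraries per strain, they measure the spread between these libraries. Coordinates are those of the deposited table.

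The same replicate number paired libraries: over 28 strain pairs the deviations correlated with r between 0.245 and 0.667 (median 0.411), so the count with the number as a block stands beside the counts of members, partners and control genes that it moved by over 1.5 times. Other alternatives were RLE factors, no filter, only the libraries compared, DESeq2 1.42.0, and fits that dropped 1 library at a time, where the lone library is assumed to vary like the others.

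The members and lists (the 30 control genes, the mating-type markers) were chosen with earlier results of these data known. RNAs were named by rule: among called members whose average log2 CPM reached 1 and whose groups did not overlap, the 8 highest and 8 lowest in S2A, 4 each in the other mutants against WT and 3 each against a parent; the 5 smallest adjusted p in the joint test; the 5 highest in RPKM; the 5 with most partners; and the 3 longest and 3 shortest. The text prints part of these; SPNCRNA.1487 in Y1F, SPNCRNA.1212 and dus4 in S2A, and SPNCRNA.889 in the S2A strains were chosen after their values were seen.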

Additional observations from a re-analysis of the deposited data

Results flagged for a closer look

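The effect of adding S7A differed between the S2A and WT backgrounds for 2 RNAs, by a test of the difference itself (edgeR, adjusted over all features tested), which was added after the data were seen. For SPNCRNA.1487, opposite mag2 and snR92, the effect of S7A was 3.38 in S2A and -0.19 in WT on the log2 scale, a difference of 3.57 ± 0.30 (SE, adjusted p = 0.00048, and 1.4e-05 with the replicate block). The S2A strain alone is h+, so mating type and the S2A replacement cannot be told apart in this difference. For SPNCRNA.1140, opposite aph1 and ser3, the effect of S7A was -0.52 in S2A and 0.93 in WT, a difference of -1.45 ± 0.26 (adjusted p = 0.041, and 0.005 with the block). The h+ S2A libraries enter this difference too, so mating type cannot be told apart here either. The effect of -0.52 was not called by itself, and leaving out a library gave 0.80 to 1.07 for that of 0.93. For neither RNA was the difference refitted with a library left out. The 2 RNAs are 0.623% of the members tested, beside 0.483% of all features called in that test. The same test called 0 members for S7A in Y1F and 0 for S7A in T4A, where 0 and 1 of all features were called. With the block it called 3 members (0.935%, beside 1.15% of all features) in the Y1F background, 17 (5.3%, beside 3.64%) in S2A and 2 (0.623%, beside 0.374%) in T4A.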

How the results depend on the processing

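No named RNA reversed its direction under the alternatives listed here, and for the other members the alternatives give counts alone. With the replicate block, the counts were 39 in Y1F (9 without it), 133 in S2A (76), 14 in T4A (0), 22 in S7A (3), 94 in Y1F-S7A (34), 143 in the S2A-S7A double (80) and 53 in the T4A-S7A double (21) against WT. They were 5 in Y1F-S7A against Y1F (0), 25 in S2A-S7A against S2A (3), 16 in T4A-S7A against T4A (2), 111 in S2A-S7A against S7A (66) and 208 in the joint test (118). DESeq2 called 19 in Y1F, 7 in T4A, 14 in S7A, 57 in Y1F-S7A and 36 in T4A-S7A against WT, and 4, 13 and 11 in the doubles against Y1F, S2A and T4A. Fits on only the libraries of the strains compared called 0 in Y1F, 0 in S7A, 12 in Y1F-S7A, 35 in the S2A-S7A double and 3 in the T4A-S7A double against WT, 1 in S2A-S7A against S2A and 0 in T4A-S7A against T4A. Those fits hold fewer libraries. RLE factors gave 1 in T4A-S7A against T4A, no filter gave 1 in S2A-S7A against S2A, and putting SPNCRNA.888 back gave 1 in T4A. Leaving out 1 library gave 0 to 3 calls in Y1F, 41 to 52 in S2A, 0 to 0 in T4A, 0 to 0 in S7A, 8 to 18 in Y1F-S7A, 40 to 64 in the S2A-S7A double and 2 to 7 in the T4A-S7A double against WT. The same gave 0 to 0 in Y1F-S7A against Y1F, 1 to 1 in S2A-S7A against S2A, 0 to 0 in T4A-S7A against T4A, 33 to 57 in S2A-S7A against S7A and 91 to 116 in the joint test. The cause of these moves was not tested. Of 62 named calls, 15 were kept in every fit that left out a library and 47 were lost in at least 1. Of 67 named results, 67 kept their side of the threshold with DESeq2 and 67 with the block, 66 with RLE factors and 64 without the filter. On only the libraries of the strains compared, 28 of the 62 named calls were kept and 34 were lost.

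Each strain has 2 libraries, and precision differed among the members: the log2 SE in S2A against WT was 0.16 for SPNCRNA.930, with 8.00 and 10.0 CPM in WT, and 0.74 for SPNCRNA.750, with 13 and 8 reads in WT. RNAs that share bases on 1 strand with another feature may share its reads, which holds for 15 members over at least 50% of their length. Mating type moves with the S2A strain alone.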
